A study of Mus musculus with 2 samples.

Results

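The genes described here encode the fibroblast growth factor (FGF), platelet-derived growth factor (PDGF) and epidermal growth factor (EGF) families, with hepatocyte growth factor (HGF), KIT ligand, their receptors and the Sprouty and Spred inhibitors. They were taken by the form of their symbols from a table of FPKM values (fragments per kb of transcript, scaled to the fragments of the library) for brown preadipocytes (D0) and brown adipocytes (D7). Of 23361 genes with values, 60 matched. Among these, Fgfr1op and Fgfr1op2 are no receptors but genes named as fusion partners of FGFR1, which left 58 members of the families.

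RNA-Seq was performed with 1 library per stage. The cells came from the interscapular brown fat of newborn mice, given as C57BL/6 in the labels and C57BL/6J in the paper's methods. Per the labels, both stages were plated 4 days before induction in medium that held 10% serum, insulin (0.1 μM) and T3 (1 nM). For D7, induction on day 0 added indomethacin (0.125 mM), dexamethasone (2 μg/ml) and IBMX (0.5 mM) for 2 days, after which the medium held insulin and T3 without them. The paper's methods give a lower insulin concentration and another dexamethasone dose, and describe cells immortalized with large T where the labels speak of primary culture. The paper's methods name pups of either sex, and whether cells of several were pooled into a library is not given in the sources used here. With 1 library per stage there is no replicate error and no test was possible.

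The values of low genes fell on whole numbers of fragments. A fit to them put the totals behind the FPKM at about 21465383 (D0) and 18266002 (D7) fragments. The paper reports larger numbers of mapped reads, nearly equal at D0 and D7, and the reason for the difference was not tested. From the fitted totals, the approximate number of fragments behind each value was taken. The ratio of D7 to D0 of each member is given with a 95% interval (exact Clopper-Pearson) in brackets. Only counting error enters these intervals, so they speak for this pair of libraries and not for the stages. A gene is written as higher or lower past 2.0-fold, the threshold of the study. The adipocyte markers were present at D7, where all 8 genes of the list were higher and Adipoq reached an FPKM of 943. Of 8 brown markers, Ppargc1a, Dio2 and Cox7a1 were higher, Ucp1, Cidea, Elovl3 and Cox8b were listed at 0 at D0 and at 4.57, 24.4, 34.2 and 253 at D7, and Prdm16 differed by less than 2.0-fold (ratio 1.22). By qPCR, the paper reports Prdm16 as upregulated at D7. Of 10 preadipocyte and fibroblast markers, 9 reached an FPKM of 1, and 4 were lower, Pdgfrb among them, and 1 higher at D7. The summed FPKM of these 10 was 4350 at D0, of which Col1a1 alone was 1900, and 2177 at D7, of which Col1a1 was 601. Of 7 proliferation markers 6 were lower, with sums of 103 and 46.5. Of the 10 macrophage markers found in the table, 9 were higher and none was listed at 0, with sums of 146 and 518. In bulk RNA, fewer cells of a type and less RNA per cell cannot be told apart.

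All these families signal through receptor tyrosine kinases. A ligand brings receptor chains together, the kinases phosphorylate each other, and adaptors such as FRS2, GRB2 and SHC1 pass the signal to RAS and the ERK kinases. Sprouty and Spred proteins are induced by this pathway and dampen it. In adipose tissue, PDGF receptors mark progenitor cells, FGF10 and FGF7 are ligands made by mesenchymal cells, and FGF21 acts on adipocytes through FGFR1 bound to the co-receptor β-klotho (Klb).

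The members split into genes that were higher, genes that were lower and genes within 2.0-fold. Of the 60 genes, 45 were above 0 in both libraries, and 13 of these (28.9%) were higher and 10 (22.2%) lower at D7. Of all 14986 genes above 0 in both libraries, 18.5% were higher and 13.2% lower (2767 and 1980 genes). The paper reports more genes down than up at the same threshold, so these shares are not those of its gene list. All 23 members past 2.0-fold had a counting interval that excluded 1. How many of all genes past 2.0-fold had such an interval was not computed, so this count has no background beside it. The median log2 ratio was -0.01 over the 45 members and 0.02 over all genes. Among the 36 members that were above 0 in both libraries and had an FPKM of at least 1 in a library, 11 were higher and 9 lower (30.6% and 25.0%), beside 15.6% and 11.9% of all such genes. Of the other 15 members, 5 were listed at 0 at D0 only, 2 at D7 only and 8 in both. Klb excepted, those at 0 in 1 library rested on about 1 to 6 fragments in the other. Of all 23361 genes with values, 14986 were above 0 in both libraries, and the split of the rest was not computed.

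**Figure D1:**
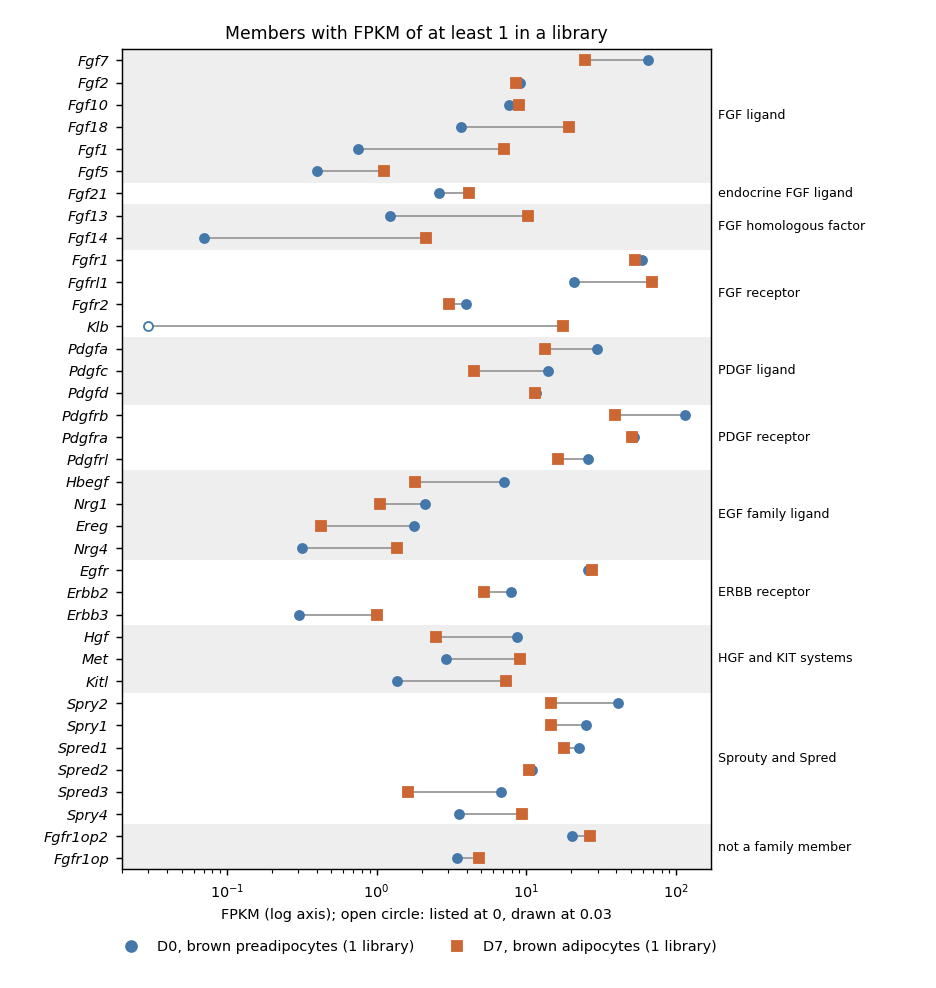
FPKM at D0 (circles) and D7 (squares) on a log axis for the 37 members that reached an FPKM of 1 in a library, in order of role, with 1 library per stage. Klb is drawn at 0.03 at D0, where it was listed at 0, and stood at 17.7 at D7, and Fgfr1, Egfr, Pdgfra, Pdgfd and Fgf2 lie almost at the same place in both libraries.

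**Figure D2:**
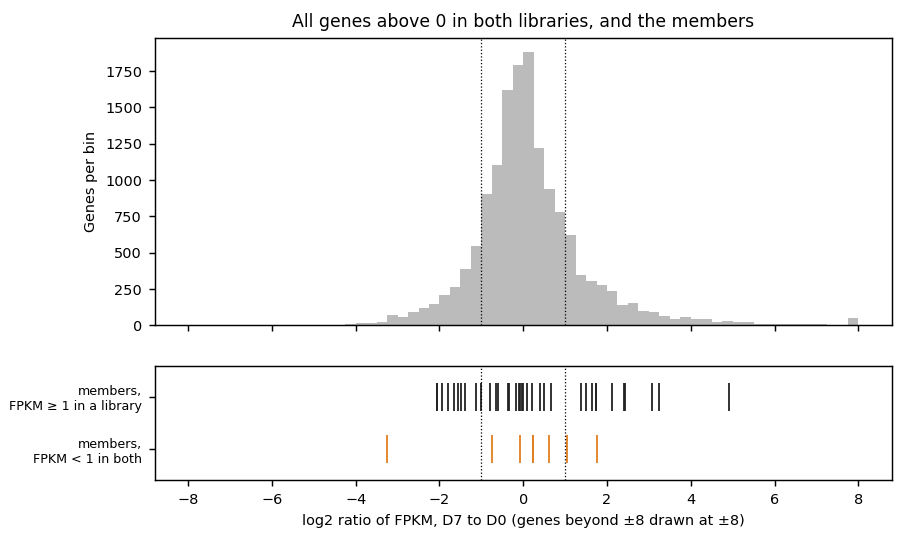
Number of genes per bin of log2 ratio of FPKM (D7 to D0) for the 14986 genes above 0 in both libraries (top), and the 45 members above 0 in both as ticks (bottom). Dotted lines stand at 2.0-fold, which 13 members passed upward and 10 downward, while the median of the members lay at -0.01.

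Among the FGF receptors, the co-receptor Klb and the receptor Fgfrl1 were higher at D7, while Fgfr1 and Fgfr2 differed by less than 2.0-fold and the low Fgfr3 and Fgfr4 could not be placed at this depth. Klb (ENSMUSG00000029195.10) had no fragment in preadipocytes, and its 17.7 FPKM in adipocytes rested on about 1087. A count of 0 allows up to 3 fragments, an FPKM of 0.0416 at D0. The FPKM at D7 was 426 times this limit, and with the counting error of both libraries the interval of the ratio started at 346. Fgfrl1, an FGF receptor that lacks the tyrosine kinase domain, stood at 20.7 FPKM at D0 against 68.6 at D7 (ratio 3.31, interval 3.08 to 3.57). The FPKM of Fgfrl1 was 0.348 times that of Fgfr1 at D0 and 1.30 times at D7. Fgfr1, the main kinase receptor, was read at 59.6 FPKM before and 52.9 FPKM after differentiation, giving a ratio of 0.888 (0.855 to 0.923). It held 93.4% of the summed FPKM of Fgfr1 to Fgfr4 at D0 and 93.9% at D7. Fgfr2, the receptor whose epithelial form binds FGF7 and FGF10, reached 3.94 FPKM in the D0 library and 3.05 in the D7 library, with 0.774 (0.636 to 0.940) as their ratio. Fgfr3 was at 0.246 FPKM (D0) and 0.379 FPKM (D7), and its ratio had an interval from 0.859 to 2.90. Fgfr4 rested on about 1 fragment in each library, so neither a level nor a change was detectable. Klotho (Kl), the co-receptor of FGF23, was listed at 0 at D0 and rested on about 3 fragments at D7.

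The endocrine ligand that uses β-klotho was read at both stages. Fgf21 was at 2.61 FPKM in preadipocytes and 4.15 in adipocytes, from about 43 and 58 fragments, a ratio of 1.59 (1.05 to 2.42). The interval lay above 1 and included 2.0. Fgf15 was listed at 0 at D0 and rested on about 1 fragment at D7, and Fgf23 on about 1 in each library. Among the endocrine FGFs, only Fgf21 was thus above 3 fragments.

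The secreted FGF ligands went from 1 dominant ligand to a more even mixture. Fgf7, keratinocyte growth factor, measured 64.8 FPKM in preadipocytes and 24.7 in adipocytes, 0.381 times as much (0.356 to 0.408). It was 72.5% of the summed FPKM of the secreted FGFs at D0 and 33.2% at D7. Its deposited locus also takes in Galk2 and Fam227b, and whether fragments of these genes entered its value was not tested. Fgf18, a ligand known from bone and cartilage, stood at 3.65 FPKM at D0 against 19.3 at D7 (ratio 5.30, interval 4.08 to 6.95). The FPKM of Fgf7 was 17.8 times that of Fgf18 at D0 and 1.28 times at D7. Fgf1, a ligand of all FGF receptors, was read at 0.749 FPKM before and 7.05 FPKM after differentiation, giving a ratio of 9.41 (7.21 to 12.5). Fgf5 reached 0.401 FPKM in the D0 library and 1.13 in the D7 library, with 2.82 (1.64 to 5.02) as their ratio, on about 20 and 48 fragments. Fgf2 and Fgf10, also above an FPKM of 1 at both stages, differed by less than 2.0-fold. Fgf2, basic FGF, was at 9.12 FPKM (D0) and 8.54 FPKM (D7), and its ratio had an interval from 0.857 to 1.02. Fgf10 measured 7.63 FPKM in preadipocytes and 8.90 in adipocytes, 1.17 times as much (1.04 to 1.30). Over the 18 secreted FGFs, endocrine ones included, the summed FPKM was 89.4 at D0 and 74.4 at D7. The deposited locus of Fgf1 runs 41803 bp past the annotated gene. Exons of Nudt6 lie opposite Fgf2 and those of antisense transcripts opposite Fgf10 and Fgfr1. The paper's methods describe enzymatic removal of the second cDNA strand, but whether counting used strand is not given in the sources used here.

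The remaining FGF ligands were at the limit of the depth. Fgf3, Fgf4, Fgf6, Fgf8 and Fgf20 were listed at 0 in both libraries, where a count of 0 allows an FPKM of up to between 0.0312 and 0.141 at D0. Fgf16 and Fgf17 were listed at 0 at D0 and rested on about 3 fragments at D7, and Fgf9 on about 1 in each library. Fgf22 was at 0.301 FPKM (D0) and 0.178 FPKM (D7), and its ratio had an interval from 0.169 to 1.53. Its deposited locus takes in 668813 bp outside the annotated gene, and exons of Rnf126 lie opposite it. Whether fragments of other genes entered its value was not tested.

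Upstream bases are shown for the members with the largest rises and falls in FPKM among those past 2.0-fold or newly read at D7 that have a single start in the RefSeq promoter table (GRCm38.p6). They are given 5′ to 3′ on the strand of the gene and outside its annotated exons. Capitals mark matches, on either strand, to a nuclear receptor motif (AGGTCA), a CRE core (TGACG), an AP-1 site (TGANTCA), an ETS core (CCGGAAG), a C/EBP site (TTGCGNAA), a GC box (GGGCGG), the letters CCAAT of the box of that name, or the promoter element TATAAA. Fgfrl1 (chr5:108693979-108694228, plus strand) and Klb (chr5:65348161-65348313, plus strand) were higher, and Fgf7 (chr2:126034408-126034657, plus strand) and Spry2 (chr14:105896820-105897069, minus strand) were lower at D7.
Fgfrl1: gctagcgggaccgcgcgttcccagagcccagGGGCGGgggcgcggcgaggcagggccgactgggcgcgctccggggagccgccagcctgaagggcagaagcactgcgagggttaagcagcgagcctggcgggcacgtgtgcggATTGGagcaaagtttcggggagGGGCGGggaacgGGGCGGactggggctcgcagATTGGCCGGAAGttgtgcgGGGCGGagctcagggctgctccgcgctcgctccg
Klb: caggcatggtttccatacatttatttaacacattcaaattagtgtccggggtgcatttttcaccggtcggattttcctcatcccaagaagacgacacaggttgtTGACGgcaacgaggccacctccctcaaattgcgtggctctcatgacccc
Fgf7: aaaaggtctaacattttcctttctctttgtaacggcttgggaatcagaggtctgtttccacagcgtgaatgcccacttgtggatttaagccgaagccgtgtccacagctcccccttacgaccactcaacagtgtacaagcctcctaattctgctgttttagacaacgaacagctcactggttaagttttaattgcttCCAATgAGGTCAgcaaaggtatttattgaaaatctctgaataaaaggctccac
Spry2: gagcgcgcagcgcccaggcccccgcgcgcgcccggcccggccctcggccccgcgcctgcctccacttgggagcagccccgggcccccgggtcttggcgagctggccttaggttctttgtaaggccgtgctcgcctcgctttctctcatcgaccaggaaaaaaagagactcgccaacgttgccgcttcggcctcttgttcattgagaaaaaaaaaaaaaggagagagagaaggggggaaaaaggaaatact

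The upstream window of Fgfrl1 held 4 GC boxes, at 219, 85, 73 and 34 bases before the start, and also 2 CCAAT boxes and an ETS core 48 bases before it. The gene as annotated in GENCODE begins further upstream, at base 108692382, so this window lies inside it, between exons. The window of Klb, which ends 97 bases before the start where an annotated exon begins, held 1 match, a CRE core at 146 bases. That of Fgf7 held a CCAAT box and a nuclear receptor motif at 53 and 47 bases. None of the 8 motifs was in the window of Spry2. In all 32851 promoters of the table, the share with a match in the 250 bases before the start was 32.7% for the GC box, 33.8% for the CCAAT box, 17.8% for the CRE core, 14.0% for the nuclear receptor motif and 6.91% for the ETS core. It was 6.75% for the AP-1 site, 12.4% for TATAAA and 0.670% for the C/EBP site. The table held promoters of 42 of the 60 genes. GC content was 73.6% for Fgfrl1, 62.4% for Spry2, 48.0% for Klb and 43.6% for Fgf7 over the 250 bases, beside a median of 52.4% over the table. The median was 70.0% over 12 promoters of 9 higher members, 60.4% over 12 promoters of 7 lower members and 61.8% over 20 promoters of 18 members within 2.0-fold. Such matches are descriptions of the letters and not binding sites.

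The FGF homologous factors stay inside the cell and are known as partners of sodium channels rather than as receptor ligands. Both Fgf13 and Fgf14 were higher at D7. Fgf14 stood at 0.0704 FPKM at D0 against 2.13 at D7 (ratio 30.3, interval 13.2 to 98.7), on about 5 and 134 fragments. An antisense transcript overlaps its exons. This was the highest ratio among the 45 members above 0 in both libraries. Fgf13 was read at 1.23 FPKM before and 10.3 FPKM after differentiation, giving a ratio of 8.37 (3.91 to 22.6). Its fragments, about 7 and 51, were taken from a named transcript of 456 bp, and a longer transcript would give more of them. Fgf12 went the other way, from an FPKM of 0.235 to 0.0247, but on about 20 and 2 fragments, with an interval from 0.0133 to 0.484. Fgf11 was at 0.467 FPKM (D0) and 0.442 FPKM (D7), and its interval ran from 0.516 to 1.67.

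Of the PDGF receptors, the β receptor was lower at D7 and the α receptor was not. Pdgfrb (ENSMUSG00000024620.11), the receptor of mural cells and preadipocytes, had the highest FPKM of all members at D0, 114, and was at 38.9 at D7, a ratio of 0.340 (0.328 to 0.353). Pdgfra (ENSMUSG00000029231.15), which marks adipose progenitors, reached 52.1 FPKM in the D0 library and 50.7 in the D7 library, with 0.973 (0.940 to 1.01) as their ratio, and no change was detectable at this depth. The intervals of the 2 ratios do not overlap. Of the other preadipocyte and fibroblast markers, Thy1, Col1a1 and Lum were lower like Pdgfrb, while Col3a1, Ly6a, Dcn and Dpp4 differed by less than 2.0-fold like Pdgfra. Cd34 was higher, at 1.85 and 15.4 FPKM (ratio 8.29, interval 6.67 to 10.5). The share of such cells in each library was not tested. The FPKM of Pdgfrb was 2.20 times that of Pdgfra at D0 and 0.767 times at D7. Pdgfrl, a receptor-like protein without a kinase domain, measured 25.7 FPKM in preadipocytes and 16.3 in adipocytes, 0.632 times as much (0.559 to 0.714).

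Of the PDGF ligands, Pdgfa and Pdgfc were lower, Pdgfb was higher at a low level and Pdgfd differed by less than 2.0-fold. Pdgfa stood at 29.5 FPKM at D0 against 13.4 at D7 (ratio 0.453, interval 0.406 to 0.505), so the interval included 0.5. Pdgfc was read at 14.0 FPKM before and 4.46 FPKM after differentiation, giving a ratio of 0.318 (0.277 to 0.364). Plat, the plasminogen activator that is known to cleave PDGF-CC into its active form, was also lower, at 44.3 and 11.5 FPKM (ratio 0.260). Pdgfd, a ligand of the β receptor, was at 11.6 FPKM (D0) and 11.5 FPKM (D7), and its ratio had an interval from 0.855 to 1.15. Pdgfb stayed low in both libraries, at 0.152 FPKM (D0) and 0.516 FPKM (D7) and a ratio of 3.40 (1.54 to 8.24) on about 9 and 26 fragments. PDGF-B is known as a product of endothelium, and of 7 endothelial markers 2 were higher and 1 lower, with summed FPKM of 1.62 and 2.69 and Tie1 at 0 in both libraries. Their part in the value of Pdgfb was not tested. The summed FPKM of the 4 ligands was 55.3 at D0 and 29.9 at D7, and that of Pdgfra and Pdgfrb was 167 and 89.6. Antisense transcripts overlap exons of Pdgfa, Pdgfc and Pdgfra.

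**Figure D3:**
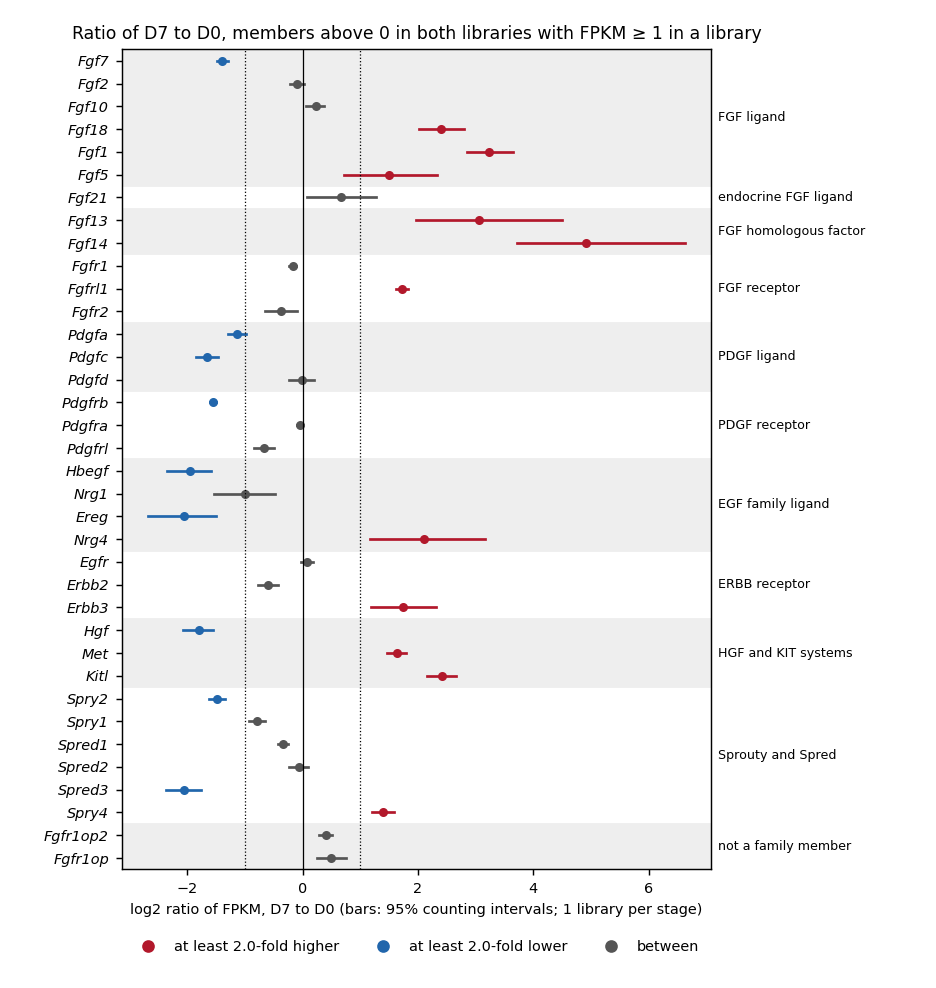
log2 ratio of FPKM (D7 to D0) with 95% counting intervals for the 36 members above 0 in both libraries that reached an FPKM of 1 in a library. Red marks the 11 higher and blue the 9 lower members past 2.0-fold (dotted lines), with Fgf14 at 4.92 at the upper end and Ereg and Spred3 at -2.06 at the lower end.

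Egfr, the EGF receptor, differed by less than 2.0-fold, while its ligands Hbegf and Ereg were lower and Btc, Egf and Tgfa, all at low levels, were higher. Egfr reached 25.8 FPKM in the D0 library and 27.3 in the D7 library, with 1.06 (0.983 to 1.14) as their ratio. Hbegf, heparin-binding EGF, measured 7.06 FPKM in preadipocytes and 1.82 in adipocytes, 0.258 times as much (0.197 to 0.333). Ereg, epiregulin, stood at 1.79 FPKM at D0 against 0.429 at D7 (ratio 0.240, interval 0.157 to 0.355). Areg, amphiregulin, had about 4 fragments in preadipocytes and none in adipocytes, a difference that was not detectable at this depth (interval of the ratio 0 to 1.79). Btc, betacellulin, was read at 0.276 FPKM before and 0.569 FPKM after differentiation, giving a ratio of 2.06 (1.08 to 4.07). Ereg, Areg and Btc lie beside each other on chromosome 5, with 46.0 kb between Ereg and Areg and 209 kb between Areg and Btc, and the ratios of Ereg and Btc lay on opposite sides of 1. Of the EGF receptor ligands outside the symbol pattern, Egf was at 0.0916 FPKM in preadipocytes and 0.275 in adipocytes (ratio 3.01, interval 1.34 to 7.38), and Tgfa 0.115 and 0.758, a ratio of 6.59 (3.34 to 13.5). An antisense transcript overlaps exons of Ereg. All of these ligands but Hbegf and Ereg were below an FPKM of 1 in both libraries.

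Nrg4, a neuregulin known as a secreted factor of brown fat, reached 0.320 FPKM in the D0 library and 1.38 in the D7 library, with 4.32 (2.24 to 8.98) as their ratio on about 12 and 44 fragments. It was 2.72% of the summed FPKM of the EGF family ligands of the set at D0 and 26.3% at D7, while that sum went from 11.7 to 5.25. Exons of Fbxo22 lie opposite Nrg4, and its deposited locus ends 11288 bp outside the annotated gene. Nrg1 measured 2.11 FPKM in preadipocytes and 1.05 in adipocytes, 0.501 times as much (0.345 to 0.722), just inside the threshold. Nrg2 and Nrg3 were listed at 0 in both libraries.

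The receptors of the neuregulins were low, Erbb2 excepted. Erbb4, the receptor to which NRG4 binds, had about 6 fragments (0.0228 FPKM) in preadipocytes and none in adipocytes, where a count of 0 allows up to 0.0139 FPKM. The interval of its ratio ran from 0 to 0.998 and barely excluded 1. As the fragment numbers are approximate, neither the size nor the direction of a change could be read. Erbb2, the partner without a ligand of its own, whose exons meet those of Mien1 on the other strand, stood at 7.87 FPKM at D0 against 5.21 at D7 (ratio 0.662, interval 0.589 to 0.742). Erbb3 was read at 0.303 FPKM before and 1.01 FPKM after differentiation, giving a ratio of 3.34 (2.29 to 4.97). ERBB3 is also known as the neuregulin receptor of Schwann cells. Of 6 Schwann cell and neuron markers, 4 were higher and 1 lower, and Sox10 was among the higher ones (FPKM 0.588 at D0 and 2.16 at D7, ratio 3.68). The summed FPKM of the 6 was 105 at D0, of which Tubb3 alone was 101, and 27.9 at D7, and Snap25 was listed at 0 at D0. Their part in the value of Erbb3 was not tested.

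HGF was lower and its receptor higher at D7. Hgf reached 8.68 FPKM in the D0 library and 2.49 in the D7 library, with 0.287 (0.237 to 0.342) as their ratio. Met measured 2.91 FPKM in preadipocytes and 9.02 in adipocytes, 3.10 times as much (2.76 to 3.47). The FPKM of Met was 0.336 times that of Hgf at D0 and 3.62 times at D7. Plau, urokinase, a protease known to act on the HGF precursor, was also lower, at 48.4 and 16.0 FPKM (ratio 0.330). The other proteases that activate HGF were barely read, the highest FPKM of Hgfac, St14 and Hpn being 0.423, for Hpn at D7. Mst1, the HGF-like ligand of the related receptor Mst1r, stood at 0.111 FPKM at D0 against 1.25 at D7 (ratio 11.3, interval 4.42 to 35.6), and Mst1r had 1.58 and 2.00.

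Kitl, stem cell factor, was higher at D7, and its receptor was hardly read. Its FPKM of 1.37 in preadipocytes stood against 7.31 in adipocytes, a ratio of 5.33 (4.48 to 6.35). Kit was listed at 0 at D0 and rested on about 4 fragments at D7, an FPKM of 0.0439, and no change was detectable. Of 6 mast cell markers, which include Kit, Mcpt4, Tpsb2 and Fcer1a were at 0 in both libraries, Cpa3 was listed at 0 at D0 and at 0.258 FPKM at D7 on about 6 fragments, and Cma1 rested on about 3 and 1. The summed FPKM of the 6 was 0.156 at D0 and 0.364 at D7. Of the related receptor kinases, Csf1r was higher, at 2.63 FPKM (D0) and 10.4 FPKM (D7), and Flt3 was listed at 0 in both libraries. Csf1r is itself a macrophage marker, and the part of macrophages in these values was not tested. Its ligand Csf1 was at 304 FPKM in preadipocytes and 144 in adipocytes, a ratio of 0.474, while Flt3l had 2.08 and 4.35, a ratio of 2.09 (1.40 to 3.17). Kit and Pdgfra lie 377 kb apart on chromosome 5, and their levels differed widely in both libraries.

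**Figure D4:**
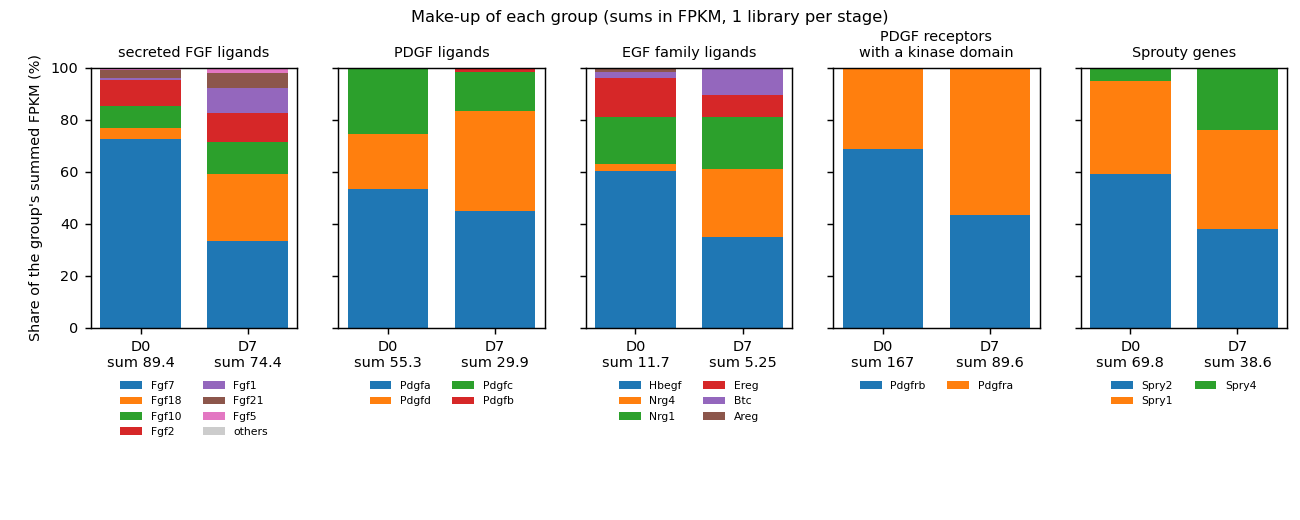
Share of each gene (%) in the summed FPKM of its group at D0 and D7, with the sums under the bars and 1 library per stage. Fgf7 went from 72.5% to 33.2% of the secreted FGF ligands, Nrg4 from 2.72% to 26.3% of the EGF family ligands, Pdgfrb from 68.7% to 43.4% of the PDGF receptors, and Spry4 from 5.09% to 24.1% of the Sprouty genes.

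Of the feedback inhibitors, Spry2 and Spred3 were lower and Spry4 was higher at D7. Spry2 was read at 41.1 FPKM before and 14.7 FPKM after differentiation, giving a ratio of 0.358 (0.324 to 0.396). Spry1 reached 25.1 FPKM in the D0 library and 14.6 in the D7 library, with 0.580 (0.526 to 0.640) as their ratio. Spry4 had 3.55 FPKM in preadipocytes and 9.31 in adipocytes, a ratio of 2.63 (2.31 to 2.99). The FPKM of Spry2 was 11.6 times that of Spry4 at D0 and 1.58 times at D7. Spry3 was listed at 0 in both libraries. Among the Spred genes, which link neurofibromin to RAS, Spred3 measured 6.77 FPKM in preadipocytes and 1.63 in adipocytes, 0.240 times as much (0.194 to 0.294). Exons of Ggn lie opposite Spred3. Spred1 stood at 22.5 FPKM at D0 against 17.8 at D7 (ratio 0.789, interval 0.744 to 0.837), and Spred2 had 10.9 and 10.4, with an interval from 0.846 to 1.07. Spry4 lies 237 kb from Fgf1 on chromosome 18 and Spry1 lies 235 kb from Fgf2 on chromosome 3. Both genes of the first pair were higher at D7, and neither gene of the second pair passed 2.0-fold.

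The other genes of the pathway comprised adaptors and kinases, feedback genes, ERK-responsive genes, further ligands and receptors, heparan sulphate carriers and proteases. Of 92 such genes, 91 had a row (Hras was not analysed here) and 87 were above 0 in both libraries, of which 11 (12.6%) were higher and 15 (17.2%) lower, beside 18.5% and 13.2% of all genes. Their median log2 ratio was -0.23. Of the 22 adaptors and RAS-ERK kinases, 1 was higher and 1 lower (4.55% each), and 20 differed by less than 2.0-fold, among them Frs2 (ratio 0.627), Grb2 (0.834) and Mapk3 (1.09). The adaptor Grb14 was lower, at 29.1 FPKM (D0) and 14.2 FPKM (D7), and the interval of its ratio of 0.489 (0.439 to 0.546) included the threshold.

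Of 13 genes that respond to ERK, 0 were higher and 3 (23.1%) lower, beside the 18.5% and 13.2% of all genes, with a median log2 ratio of -0.55. Etv4, an ETS factor induced by FGF signals, was read at 3.54 FPKM before and 0.381 FPKM after differentiation, giving a ratio of 0.108 (0.0589 to 0.183). Phlda1 was at 22.0 FPKM in preadipocytes and 4.33 in adipocytes, and Ier3 30.5 and 11.2. The related Etv5 had a ratio of 0.725 and Etv1 of 1.21, Egr1 of 0.810, and Ccnd1, cyclin D1, of 0.982. Of 16 genes of feedback and receptor turnover, 1 (6.25%) was higher and 4 (25.0%) lower, beside the same shares of all genes. Dusp4, a nuclear phosphatase of ERK, reached 10.2 FPKM in the D0 library and 33.2 in the D7 library, with 3.26 (2.96 to 3.60) as their ratio. Lower were Dusp9 (ratio 0.150), Dusp5 (0.413), Lrig3 (0.435) and Flrt3 (0.389). Dusp6, the cytoplasmic ERK phosphatase, had a ratio of 1.20 (1.03 to 1.41).

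Heparan sulphate chains hold FGFs on the cell surface and to their receptors. Of the 12 genes for their carriers and klotho, 11 were above 0 in both libraries, of which 1 (9.09%) was higher and 3 (27.3%) lower, beside 18.5% and 13.2% of all genes. Sdc3 measured 91.3 FPKM in preadipocytes and 25.7 in adipocytes, 0.282 times as much (0.269 to 0.295), and Gpc1 30.3 and 14.5, a ratio of 0.479. Gpc2 was also lower (0.437), while Gpc3 had a ratio of 2.08 (1.88 to 2.31). Of the 16 proteases and inhibitors that act on these ligands, 15 were above 0 in both libraries, of which 3 (20.0%) were higher and 2 (13.3%) lower, near the shares of all genes. Plat and Plau were lower. Hpn (ratio 2.84, on about 5 and 13 fragments) and Hgfac (2.35, on about 1 and 2 fragments) were higher below an FPKM of 1, and Pcsk6, a proprotein convertase, was higher, from an FPKM of 9.09 to 32.1 (ratio 3.54). Adam17, the main sheddase of EGF receptor ligands, had a ratio of 1.51 and Adam10 of 0.857. Fgfbp3, which binds FGFs in the matrix, was at 3.69 FPKM in preadipocytes and 1.53 in adipocytes, a ratio of 0.415. Vegfa, an angiogenic ligand, had a ratio of 1.32.

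**Figure D5:**
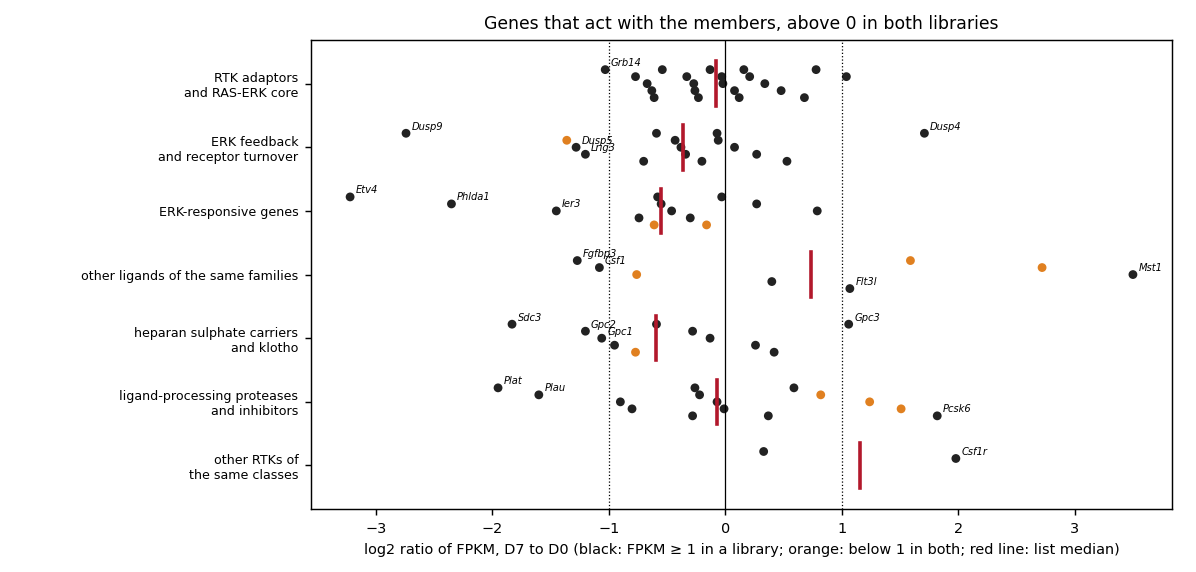
log2 ratio of FPKM (D7 to D0) of the 87 pathway genes above 0 in both libraries, by list, with 1 point per gene, the list median as a red line and names beside most genes past 2.0-fold at an FPKM of at least 1 in a library. Adaptors and RAS-ERK kinases lie around a median of -0.08, and the ERK-responsive genes reach down to Etv4 at -3.22.

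Fgfr1op and Fgfr1op2, matched by name alone, stood at 3.45 and 20.1 FPKM at D0 and at 4.87 and 26.6 at D7. Their ratios of 1.41 (1.19 to 1.68) and 1.33 (1.22 to 1.43) did not pass 2.0-fold.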

How the data were processed

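The authors removed adaptor, low-quality, duplicate and rRNA reads, aligned the rest to mm10 and gene sequences with SOAP2, and deposited FPKM values, 1 per gene and library. The submitters' processing notes also name Bowtie2. Of 27324 rows, 3963 held no value. Values were used as deposited, without a pseudocount.

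Fragments behind the values were recovered from 600 genes that have 1 exon only (600 bp or longer). With 179 bp (D0) and 182 bp (D7) taken off each length, all low values (79 and 90, to at most 20 fragments) lay within 0.1 of a whole number. For genes of several exons, lengths came from the transcript the row names (58 members) or else the longest coding transcript in GENCODE M21 (2 members), so their fragments are approximate.

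The members and lists were chosen with earlier results of these data known. Named in full is each member with an FPKM of at least 1 in a library. Others are named by range, or where they passed 2.0-fold with an interval that excluded 1, or were at 0 in 1 library with over 3 fragments in the other. Pathway genes are named past 2.0-fold at an FPKM of at least 1, with Kl, Egf and Tgfa in any case. Any other gene named was picked with its values in view, and some pathway and marker genes are not reported here. The alternatives were other pseudocounts, scalings, filters, a stricter threshold and, added later, a floor and a minimum of fragments. Scripts were tested on simulated data. Intervals were computed with scipy 1.17.1, tables with pandas 2.3.3 and numpy 2.4.6 under Python 3.11.15, and plots with matplotlib 3.10.9.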

Additional observations from a re-analysis of the deposited data

How the results depend on the processing

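For the 13 higher and 10 lower members, a pseudocount of 1 gave 8 higher, and a threshold of 4.0-fold gave 6 higher and 3 lower. For the 11 higher and 15 lower pathway genes, whose alternatives were added after seeing the data, the pseudocount of 1 gave 6 and 9, the threshold of 4.0-fold 2 and 3, and a filter at an FPKM of 1 in a library 7 higher. A floor of 0.01 with division of each library by the median of all its values, chosen after seeing the data, moved each log2 ratio above the floor by -0.35. It gave 17 higher and 16 lower members, with genes at 0 in a library now counted, and 8 higher and 26 lower pathway genes. Under it Pdgfrl (ratio 0.495), Spry1 (0.454) and Nrg1 (0.392) passed 2.0-fold, and Egfr (0.828) and Fgf10 (0.914) turned below 1. Centring on the median, TPM, the upper quartile and a trimmed mean moved log2 ratios by -0.01 to -0.05, which brought Nrg1 alone among the members with an FPKM of at least 1 to the other side of 2.0-fold. With a pseudocount of 1, Erbb3 (1.54), Ereg (0.512), Fgf5 (1.52) and Nrg4 (1.80) no longer passed it, and Fgf14 (2.93), Fgf1 (4.60) and Kitl (3.51) came closer to 1. Fgf14 had a ratio of 13.1 with a pseudocount of 0.1. Of the 252 ratios of these members under the 7 pseudocounts and scalings, 214 lay inside the counting interval, whose width depends on the fragments of each gene. A pseudocount cannot move a ratio across 1, and the scalings moved log2 ratios by -0.01 to -0.35. No called member could therefore change direction in these settings. No paired analysis was possible because there was 1 library per stage. The spread between cultures is unknown.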
